A study of Homo sapiens with 15 samples.

Results

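The chemokine genes described here are XCL1, CCL2, CCL5, CCL20, CXCL1, CXCL2, CXCL3, CXCL8, CXCL16 and CX3CL1, followed through 2 human ovarian cancer cell lines and 3 drug treatments. They were taken by symbol: every probe set, that is, every group of array probes for a transcript, that the platform annotation assigns to 1 of these symbols alone was used. This gave 10 genes with 17 probe sets, of 19775 genes and 54613 probe sets in all. A2780 is labelled as sensitive to cisplatin and CP70 is a resistant line derived from it; untreated A2780 and untreated CP70 were profiled, as was CP70 after decitabine, after PXD101 and after both drugs. Decitabine is a cytidine analog whose incorporation into DNA traps methyltransferases, and PXD101 (belinostat) is an inhibitor of histone deacetylases. Decitabine was given at 0.1 µM for 48 h, PXD101 alone at 0.1 µM for 48 h, and in the combined arm 48 h of decitabine at 0.1 µM was joined by 0.1 µM PXD101 for 24 h, so the exposure to PXD101 was shorter in that arm. RNA of the treated cells was taken 96 h after drug removal. All drug groups share the CP70 background and no treated A2780 cells were analysed here. Each of the 5 groups has 3 arrays, stated to be biological replicates of the cultures, and every treatment stands on a single resistant line.

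Chemokines are small secreted proteins that guide cells along concentration gradients by binding receptors of the G protein coupled class. They are grouped by the spacing of their conserved cysteines into XC, CC, CXC and CX3C families. CXCL1, CXCL2, CXCL3 and CXCL8 attract neutrophils through the receptors CXCR1 and CXCR2, and their genes are known targets of NF-kB, a transcription factor activated by cytokines such as IL-1 and TNF. CCL2 draws monocytes, CCL5 draws T cells and monocytes, CCL20 is the ligand of CCR6, and XCL1 is the ligand of XCR1, a receptor of cross-presenting dendritic cells. CXCL16 and CX3CL1 are made as membrane-anchored proteins that proteases can release.

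Promoter sequence from RefSeq (GRCh38.p14) was matched for 5 of the 10 genes, CCL20, CXCL1, CXCL2, CXCL3 and CXCL8. The last 110 bases before each start site are shown, because 4 of these genes are neighbours on chromosome 4 whose levels differed with treatment and because they carry NF-kB type letters at a similar distance from the start. Each is written from 5′ to 3′ on the strand of the gene, and capitals mark the NF-kB type match.
CCL20, chr2:227813732-227813841 (+): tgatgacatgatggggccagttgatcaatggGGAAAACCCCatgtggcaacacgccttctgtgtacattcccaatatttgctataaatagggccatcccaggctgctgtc
CXCL1, chr4:73869283-73869392 (+): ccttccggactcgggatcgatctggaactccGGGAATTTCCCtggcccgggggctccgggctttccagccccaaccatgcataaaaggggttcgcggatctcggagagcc
CXCL2, chr4:74099196-74099305 (-): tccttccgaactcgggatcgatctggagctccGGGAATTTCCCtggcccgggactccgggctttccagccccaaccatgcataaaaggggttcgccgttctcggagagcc
CXCL3, chr4:74038690-74038799 (-): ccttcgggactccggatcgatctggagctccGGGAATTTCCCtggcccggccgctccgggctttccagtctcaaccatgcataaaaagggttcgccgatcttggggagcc
CXCL8, chr4:73740459-73740568 (+): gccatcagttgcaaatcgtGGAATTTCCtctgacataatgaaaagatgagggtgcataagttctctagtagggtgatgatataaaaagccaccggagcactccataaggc

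Over these 110 bases CXCL1 and CXCL2 were 93.7% identical, CXCL1 and CXCL3 90%, and CXCL2 and CXCL3 88.4%, whereas CXCL8 and CCL20 were 44% to 52% identical to each of the others and 50.4% identical to one another. The letters GGAATTTCC, read on both strands over the 250 bases before the start, were found in CXCL1 and CXCL3 at -78 to -70, in CXCL2 at -77 to -69 and in CXCL8 at -91 to -83. They occurred in 145 of all 35116 promoters of the table (0.413%). The longer NF-kB consensus, which overlaps those letters where both match, was found in CXCL1, CXCL2 and CXCL3 and, on the other strand, in CCL20 at -79 to -70, and in 5.21% of all promoters. The AP-1 type letters TGACTCA were found in CXCL8 alone of the 5, at -137 to -131, outside the stretch printed above, and in 4.2% of all promoters. CpG pairs, the sites of DNA methylation, numbered 18 in CXCL1, 20 in CXCL2 and 19 in CXCL3, but 4 in CXCL8 and 3 in CCL20, against a median of 11 over all promoters. These are matches of letters, and neither methylation nor factor binding was measured.

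**Figure D1:**
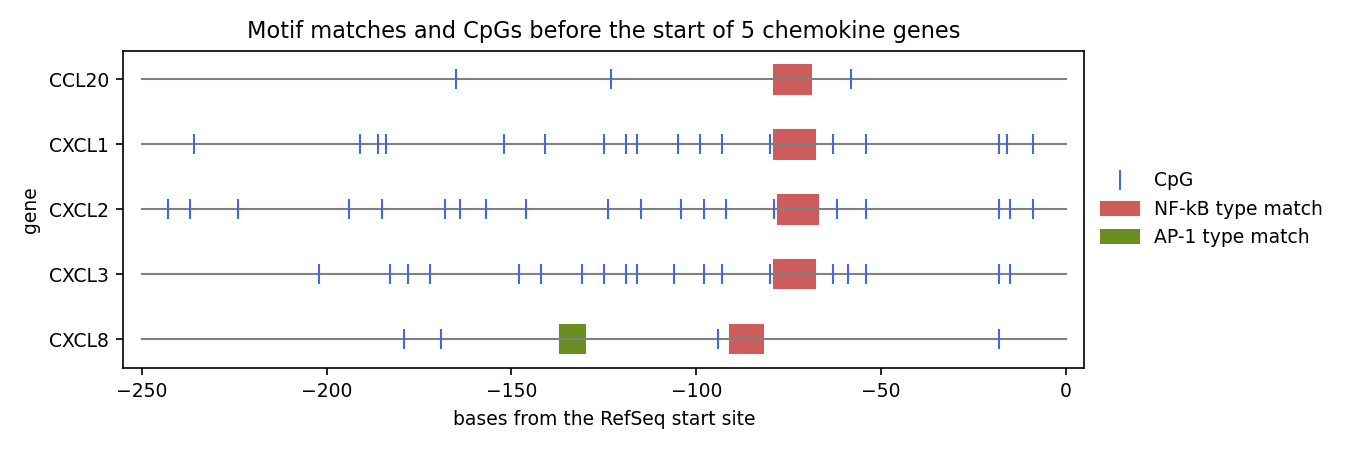
Motif matches and CpGs in the 250 bases before the RefSeq start site of 5 chemokine genes (horizontal axis, bases from the start; 1 row per gene). Red boxes are NF-kB type matches, the green box is the AP-1 type match and blue ticks are CpGs; CXCL1, CXCL2 and CXCL3 carry 18 to 20 CpGs and CXCL8 and CCL20 carry 4 and 3.

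All levels are log2 values, in which a difference of 1 is a doubling, and are comparable across arrays for 1 probe set but not between probe sets. Array medians lay between 5.00 and 5.06, and over all gene values the lower quartile was 4.34 and the upper quartile 8.60; a level under 4.34 is close to the floor of the array, and a fold computed from it may be too small. Arrays of a group correlated across genes at 0.993 to 0.997, except in untreated CP70, where replicate 2 correlated at 0.983 and 0.986 with its own group and at 0.995 to 0.997 with the PXD101 arrays. The array labelled CP70 replicate 2 thus went against its label in this measure; whether it was mislabelled was not tested, and it enters every comparison with untreated CP70. For the chemokines called against untreated CP70 or A2780, the value without it is given too. On the gene lists, 3 of 141 calls between the lines or against untreated CP70 (ACKR4, RELA and NFKBIZ) were lost without it and none changed sign. The 3' actin probe set exceeded the 5' one, a sign of RNA quality, by 0.63 to 0.86 in untreated CP70, by 0.34 to 0.38 in A2780, by 0.38 to 0.51 with PXD101, by 0.42 to 0.49 with both drugs and by 0.34 to 0.79 with decitabine. This sign was highest in untreated CP70, the reference for each drug treatment, and its part in the chemokine values was not tested.

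**Figure D2:**
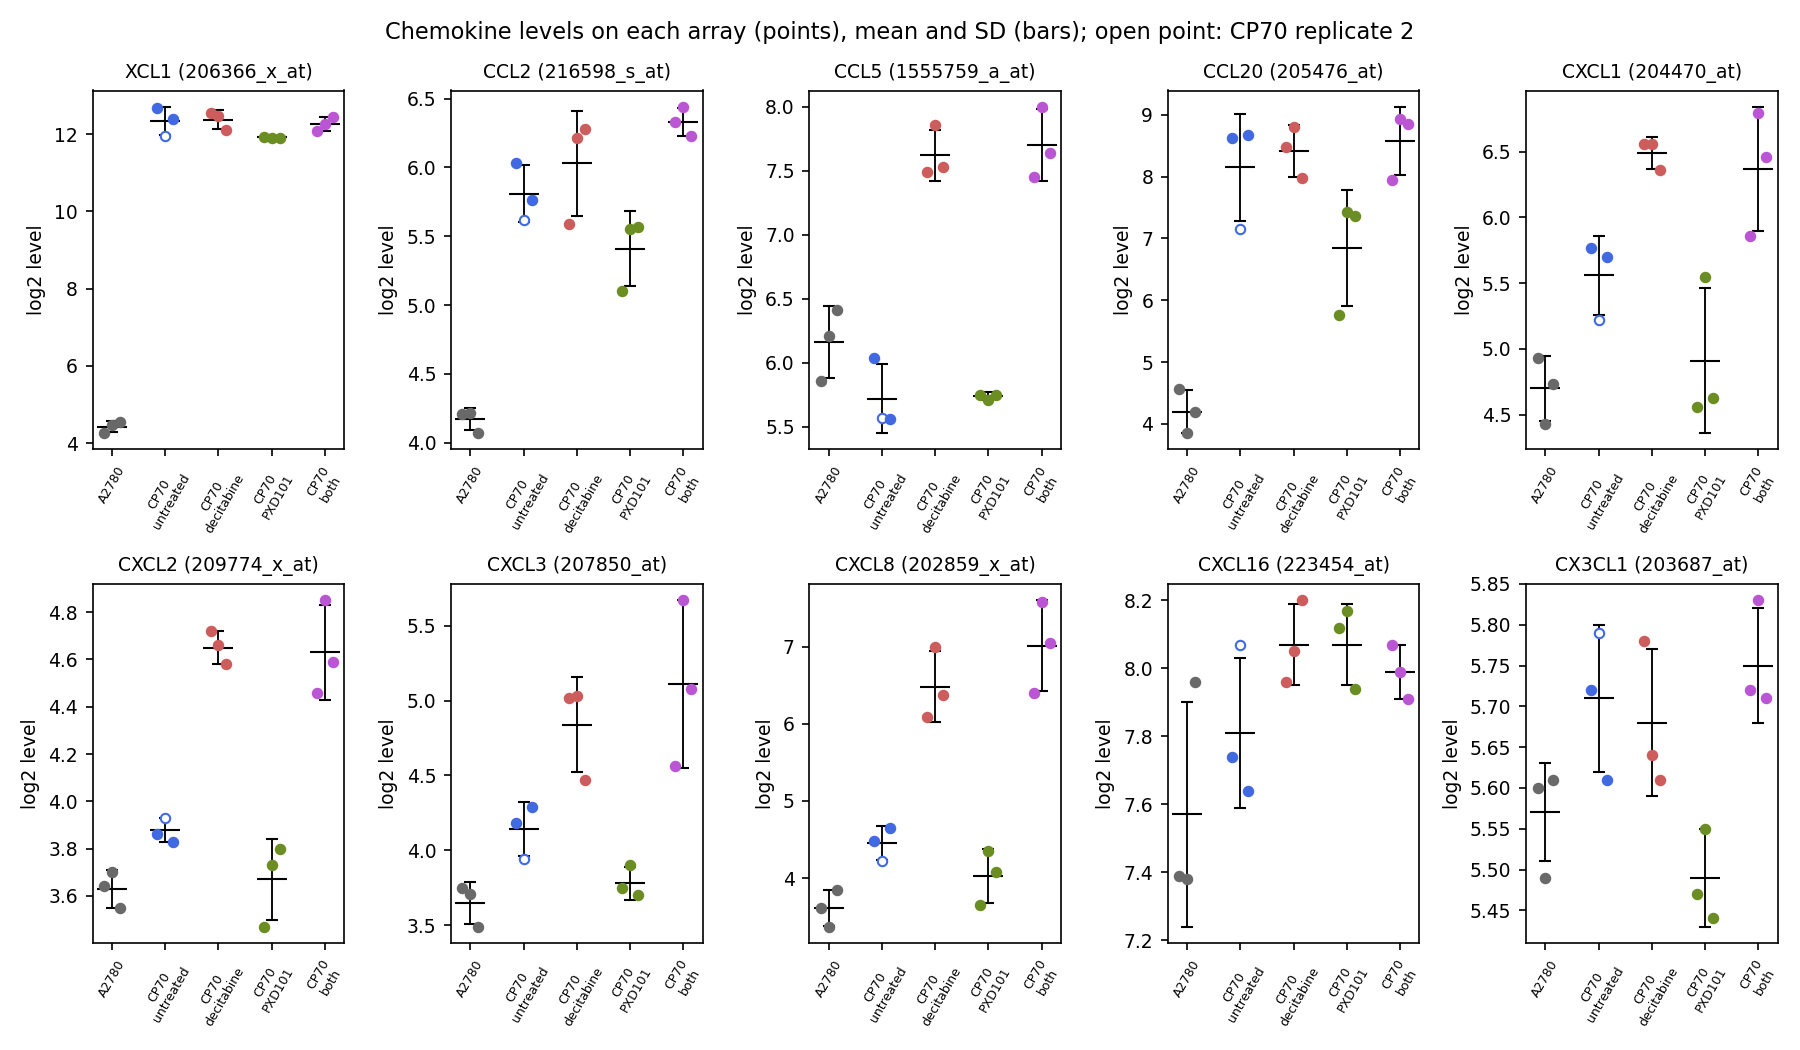
Levels of the 10 chemokine genes (vertical axes, log2, a separate scale per panel) on the 15 arrays (points) with the mean and SD of each group of 3 (bars); the open point is CP70 replicate 2. XCL1, CCL2 and CCL20 part A2780 from CP70. CCL5, CXCL2, CXCL3 and CXCL8 part the groups given decitabine from those without it, as does CXCL1 narrowly (5.86 or more against 5.77 or less). CXCL16 and CX3CL1 stay within 7.38 to 8.20 and 5.44 to 5.83.

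The comparison of untreated CP70 with A2780 asked which chemokines differ between the resistant line and its parent. XCL1, CCL20, CCL2, CXCL1 and CXCL8 were higher in CP70 and none was lower. These 5 of 10 genes passed limma's test (Benjamini-Hochberg adjusted p under 0.05 over all genes), where 16.1% of all 19775 genes were called higher and 15.2% lower. The median change of the 10 genes was 0.66, against 0.01 for all genes. All 5 were also called when CP70 replicate 2 was left out. By rank product, the test named in the series' design text, 3 of the 10 (XCL1, CCL2 and CCL20) were called higher, against 2.73% of all genes.

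XCL1 (206366_x_at), the ligand of XCR1, lay at 4.26, 4.48 and 4.54 in A2780, at 12.68, 11.95 and 12.39 in untreated CP70, at 12.56, 12.47 and 12.11 with decitabine, at 11.94, 11.91 and 11.91 with PXD101 and at 12.08, 12.26 and 12.45 with both drugs. The A2780 arrays were near the lower quartile of all gene values, and every CP70 array, treated or not, was above the upper quartile. The rise in the resistant line was 7.91 ± 0.17 (SE), or 241-fold (limma adjusted p = 2.46e-14), and it was 8.11 without CP70 replicate 2 and 7.52 with that replicate as the only untreated array. The second XCL1 probe set, 206365_at, rose by 5.35 ± 0.22. XCL1 has a near-identical paralog, XCL2, and their signals may not be separable: 214567_s_at, annotated to both genes and no member here, lay at 3.58 to 3.96 in A2780 and at 11.75 to 12.56 over the 12 CP70 arrays.

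CCL20 (205476_at), the ligand of CCR6, lay at 4.56, 3.86 and 4.19 in A2780, at 8.62, 7.16 and 8.67 in untreated CP70, at 8.48, 8.81 and 7.98 with decitabine, at 5.76, 7.43 and 7.36 with PXD101 and at 7.95, 8.94 and 8.85 with both drugs. Untreated CP70 was above A2780 on every array, and its replicate 2 lay within the range of the PXD101 arrays. The rise over A2780 was 3.95 ± 0.46, or 15.4-fold (limma adjusted p = 8.06e-06); it was 4.44 without CP70 replicate 2 and 2.96 with it alone.

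CCL2 (216598_s_at), which draws monocytes, lay at 4.21, 4.22 and 4.07 in A2780, at 6.03, 5.62 and 5.76 in untreated CP70, at 5.59, 6.21 and 6.28 with decitabine, at 5.10, 5.55 and 5.57 with PXD101 and at 6.33, 6.44 and 6.23 with both drugs. A2780 was below every CP70 array, and among the CP70 groups the PXD101 arrays were lowest. The rise over A2780 was 1.64 ± 0.17, or 3.11-fold (limma adjusted p = 2.96e-06), and 1.73 without CP70 replicate 2.

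CXCL1 and CXCL8 differed less firmly between the lines. CXCL1 rose by 0.87 ± 0.26 (limma adjusted p = 0.0192) and CXCL8 (202859_x_at) by 0.84 ± 0.28 (0.0302), with no overlap between the arrays of the lines. The second CXCL8 probe set, 211506_s_at, did not bear out a rise. It changed by 0.05 ± 0.26 (limma adjusted p over all probe sets = 0.937), and its arrays overlapped. CXCL1 was not called without A2780 replicate 2, CP70 replicate 1 or CP70 replicate 3 (adjusted p = 0.0862, 0.0770 and 0.0711). CXCL8 lost its call without replicates 1 and 2 of A2780, each in turn (adjusted p = 0.0691 and 0.115), and without replicates 1 and 3 of CP70 (0.0760 and 0.111). Without CP70 replicate 2 the rises were 1.04 and 0.96, and with it as the only untreated array the adjusted p was 0.421 for CXCL1 and 0.377 for CXCL8.

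The other 5 chemokines were not called between the lines. The changes were -0.44 ± 0.17 for CCL5 (limma adjusted p = 0.0688), 0.49 ± 0.22 for CXCL3 (0.115), 0.25 ± 0.11 for CXCL2 (0.109), 0.24 ± 0.15 for CXCL16 (0.273) and 0.14 ± 0.08 for CX3CL1 (0.258). Of these, 3 passed the threshold when 1 array was left out: CCL5 without A2780 replicate 1 or CP70 replicate 1 (adjusted p down to 0.0208), CXCL3 without replicate 1 or 2 of both drugs (0.0422), and CXCL16 without A2780 replicate 3 (0.0239).

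**Figure D3:**
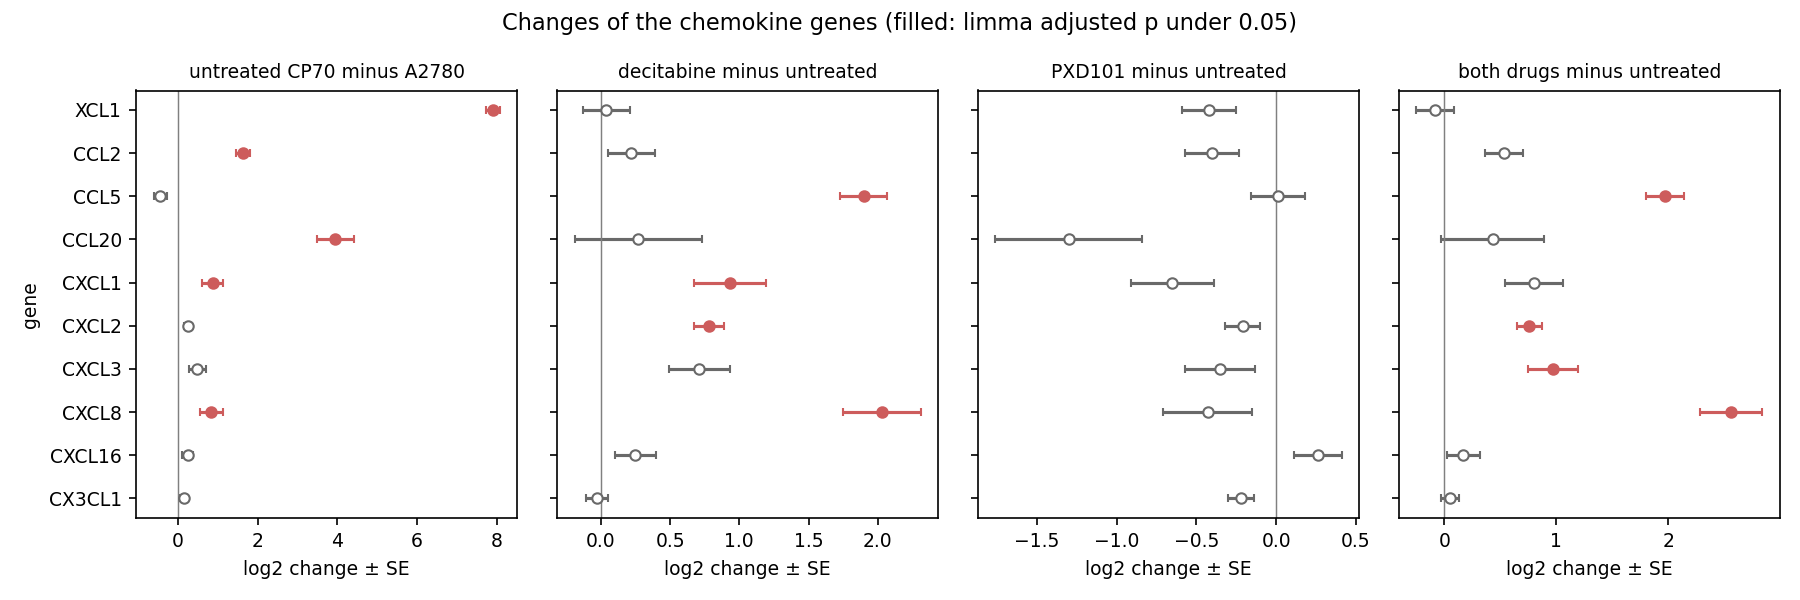
Log2 change (horizontal axes, with SE bars; the scale differs between panels) of the 10 chemokine genes in CP70 against A2780 and in each drug group against untreated CP70; filled points have a limma adjusted p under 0.05. XCL1 has the largest change between the lines (7.91), CXCL8 and CCL5 have the largest with decitabine (2.03 and 1.90) and with both drugs (2.56 and 1.97), and no point is filled for PXD101.

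Decitabine against untreated CP70 asked which chemokines differ in the resistant line 96 h after decitabine was removed. CCL5, CXCL8, CXCL2 and CXCL1 rose and none fell. That is 4 of 10 genes by limma, where 4.87% of all genes were called higher and 3.14% lower; 3 of these 4 were called without CP70 replicate 2. The median change of the 10 was 0.49, against 0.02 for all genes. Rank product called CCL5 and CXCL8, against 1.32% of all genes.

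CCL5 (1555759_a_at), which draws T cells and monocytes, lay at 5.86, 6.21 and 6.41 in A2780, at 6.04, 5.57 and 5.56 in untreated CP70, at 7.49, 7.86 and 7.53 with decitabine, at 5.75, 5.71 and 5.75 with PXD101 and at 7.45, 8.00 and 7.64 with both drugs. The 6 arrays of cells given decitabine were above all 9 others, and the PXD101 arrays lay within the range of untreated CP70. The rise with decitabine was 1.90 ± 0.17, or 3.73-fold (limma adjusted p = 4.92e-06; 1.82 without CP70 replicate 2), and all 3 CCL5 probe sets rose (1.90, 2.08 and 1.72).

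CXCL8 (202859_x_at), the neutrophil attractant interleukin-8, lay at 3.61, 3.37 and 3.84 in A2780, at 4.48, 4.22 and 4.65 in untreated CP70, at 6.09, 6.99 and 6.37 with decitabine, at 3.65, 4.35 and 4.08 with PXD101 and at 6.40, 7.58 and 7.05 with both drugs. The decitabine and combined arrays overlapped each other and were above all others. The rise with decitabine was 2.03 ± 0.28, or 4.09-fold (limma adjusted p = 0.000306), and 1.92 without CP70 replicate 2. The second probe set, 211506_s_at, changed by 0.81 ± 0.26 (adjusted p over all probe sets = 0.0899), with values of 4.21, 5.58 and 4.55 against 4.12, 3.94 and 3.86 in untreated CP70.

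The GRO chemokines CXCL1, CXCL2 and CXCL3, whose promoter stretches are shown above, had smaller changes. CXCL2 (209774_x_at) lay at 3.86, 3.93 and 3.83 in untreated CP70, at 4.72, 4.66 and 4.58 with decitabine, at 3.47, 3.73 and 3.80 with PXD101, at 4.46, 4.85 and 4.59 with both drugs and at 3.64, 3.70 and 3.55 in A2780. It was close to the low end of the scale without decitabine and did not overlap those arrays with it. The rise was 0.78 ± 0.11, or 1.71-fold (limma adjusted p = 0.000448), and 0.81 without CP70 replicate 2. Its other probe sets, 230101_at and 1569203_at, stayed between 3.29 and 3.98 on all arrays and were not called. The x_at suffix marks probes that can also match other transcripts, so the signal of 209774_x_at may hold that of close relatives such as CXCL3. The probe sets that represent CXCL8 and XCL1, 202859_x_at and 206366_x_at, carry the same suffix.

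CXCL1 (204470_at) lay at 4.93, 4.43 and 4.73 in A2780, at 5.77, 5.22 and 5.70 in untreated CP70, at 6.56, 6.56 and 6.36 with decitabine, at 4.56, 5.55 and 4.63 with PXD101 and at 5.86, 6.79 and 6.46 with both drugs. The decitabine arrays were above those of untreated CP70. The rise was 0.93 ± 0.26, or 1.90-fold (limma adjusted p = 0.0417). It was near the threshold: with 1 array left out the adjusted p ran from 0.0157 to 0.109 and passed in 5 of 15 cases; without CP70 replicate 2 it was 0.0592, with a change of 0.76, and each of the CP70 and decitabine arrays was among those without which it was lost.

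CXCL3 (207850_at) lay at 3.75, 3.71 and 3.49 in A2780, at 4.18, 3.94 and 4.29 in untreated CP70, at 5.02, 5.03 and 4.47 with decitabine, at 3.75, 3.90 and 3.70 with PXD101 and at 4.56, 5.67 and 5.08 with both drugs. Its arrays did not overlap between decitabine and untreated CP70, and the change of 0.71 ± 0.22 missed the threshold (limma adjusted p = 0.0632). It was called without decitabine replicate 3 or without replicate 1 or 2 of both drugs (down to 0.0213).

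XCL1, CCL20 and CCL2, which set the lines apart, were not called with decitabine. The 95% interval of the change was -0.31 to 0.40 for XCL1, -0.71 to 1.25 for CCL20 and -0.15 to 0.59 for CCL2. CXCL16 (223454_at) changed by 0.25 ± 0.15 and CX3CL1 (203687_at) by -0.03 ± 0.08 (limma adjusted p = 0.344 and 0.882). The CX3CL1 probe sets disagreed: 823_at, at 4.71, 4.53 and 4.73 in untreated CP70 and at 5.26, 5.29 and 5.10 with decitabine, rose by 0.56 ± 0.11 (adjusted p over all probe sets = 0.00895).

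PXD101 alone against untreated CP70 asked the same 96 h after PXD101 was removed, and no chemokine was called by limma in either direction. Of all genes, 5.57% were called higher and 5.15% lower. Of the 10 chemokines, 5 had an unadjusted p under 0.05, as had 5444 of all 19775 genes. The changes were negative in 8 of the 10, with a median of -0.37 against 0.01 for all genes. Rank product called CCL20 lower (percentage of false positives under 5), against 1.15% of all genes. The changes with the lowest p-values were -1.30 ± 0.46 for CCL20 (limma adjusted p = 0.0789), -0.22 ± 0.08 for CX3CL1 (0.104), -0.42 ± 0.17 for XCL1 (0.114), -0.65 ± 0.26 for CXCL1 (0.118) and -0.40 ± 0.17 for CCL2 (0.149).

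This comparison turned on CP70 replicate 2. Without it, XCL1 (-0.61, limma adjusted p = 0.00472), CCL20 (-1.80, 0.00423) and CXCL1 (-0.82, 0.0338) were called lower, and 5736 of all genes were called in place of 2119. Without CP70 replicate 1, CP70 replicate 3 or any single PXD101 array, none of the 19775 genes was called. CCL5 changed by 0.01 ± 0.17 and CXCL8 by -0.43 ± 0.28, with 95% intervals of -0.35 to 0.38 and -1.02 to 0.17, which hold no rise of the size seen with decitabine.

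With both drugs, CXCL8, CCL5, CXCL3 and CXCL2 rose over untreated CP70 and none fell. That is 4 of 10 genes by limma, also without CP70 replicate 2, where 6.17% of all genes were called higher and 4.22% lower. Rank product called CCL5 and CXCL8, against 1.51% of all genes. CXCL8 rose by 2.56 ± 0.28, or 5.89-fold (limma adjusted p = 2.69e-05), and its second probe set by 1.60 ± 0.26 (adjusted p over all probe sets = 0.00153). CCL5 rose by 1.97 ± 0.17, or 3.93-fold (limma adjusted p = 2.80e-06), and CXCL2 by 0.76 ± 0.11 (0.000445). CXCL3 rose by 0.97 ± 0.22, or 1.96-fold (0.0108), with an adjusted p of 0.0514 without replicate 2 of both drugs, its highest array. Without CP70 replicate 2 the rises were 2.44 for CXCL8, 1.90 for CCL5, 0.79 for CXCL2 and 0.87 for CXCL3.

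CXCL1 and CCL2 missed the threshold with both drugs, at 0.80 ± 0.26 (limma adjusted p = 0.0658) and 0.53 ± 0.17 (0.0678), although neither overlapped the untreated arrays. CXCL1 passed without replicate 1 of both drugs or PXD101 replicate 2 (down to 0.0265) and CCL2 without decitabine replicate 1 (0.0262). XCL1 changed by -0.08 ± 0.17, CCL20 by 0.43 ± 0.46, CXCL16 by 0.17 ± 0.15 and CX3CL1 by 0.05 ± 0.08. The second XCL1 probe set, 206365_at, changed by -0.69 ± 0.22 (limma adjusted p over all probe sets = 0.0825). The contrasts with decitabine, PXD101 and both drugs share the 3 untreated CP70 arrays.

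Set directly against decitabine alone, the combination differed in no chemokine by limma. None of the 10 genes, each by its representing probe set, had an unadjusted p under 0.05, where 929 of all 19775 genes had. After adjustment 0.0101% of all genes (2 genes) were called in either direction. CXCL8 differed by 0.53 ± 0.28, with a 95% interval of -0.07 to 1.12, and its second probe set, 211506_s_at, by 0.79 ± 0.26 (adjusted p over all probe sets = 0.793). For CCL5 the interval was -0.29 to 0.44, for CXCL2 -0.25 to 0.22 and for CCL20 -0.82 to 1.13, so that a change of less than 1 log2 in CCL20 could not be resolved.

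Against PXD101 alone, 7 chemokines were higher in the combined group, CXCL8, CCL5, CCL20, CXCL1, CXCL3, CXCL2 and CCL2, where 5.91% of all genes were called higher. The differences were 2.98 ± 0.28 for CXCL8, 1.96 ± 0.17 for CCL5, 1.45 ± 0.26 for CXCL1, 1.32 ± 0.22 for CXCL3, 0.97 ± 0.11 for CXCL2 and 0.93 ± 0.17 for CCL2. CCL20 was higher by 1.73 ± 0.46 (limma adjusted p = 0.0269). That call was lost without replicate 2 or 3 of both drugs or PXD101 replicate 1 (adjusted p = 0.127, 0.0939 and 0.120).

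The same 7 genes were higher with decitabine than with PXD101, where 4.9% of all genes were called higher. CXCL8 differed by 2.46 ± 0.28, CCL5 by 1.89 ± 0.17, CXCL1 by 1.58 ± 0.26, CXCL3 by 1.06 ± 0.22 and CXCL2 by 0.99 ± 0.11. CCL20 (1.57 ± 0.46, limma adjusted p = 0.0477) and CCL2 (0.62 ± 0.17, 0.0399) were near the threshold and were called in 5 and 4 of 15 fits with 1 array left out, where their adjusted p reached 0.188 and 0.164. CXCL16 and CX3CL1 differed by -0.01 ± 0.15 and 0.19 ± 0.08.

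The response to both drugs minus the responses to each drug, which is 0 where the log2 changes add up, was called for no chemokine by limma, and for 0.0152% of all genes (3 genes). PXD101 was given for 48 h alone and for 24 h in the combined arm, so non-additivity and the shorter exposure cannot be told apart. At an unadjusted p under 0.05 there were 4 of the 10, and 3576 of all 19775 genes. The 4 chemokines were CCL20 (1.45 ± 0.65), CXCL8 (0.95 ± 0.39), CCL2 (0.70 ± 0.24) and CX3CL1 (0.30 ± 0.12). The second CX3CL1 probe set, 823_at, had the other sign (-0.25 ± 0.16). The value for CCL5 was 0.06 ± 0.24. Without CP70 replicate 2, CCL20 (1.95, limma adjusted p = 0.0233) and CCL2 (0.80, 0.0343) were called.

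Over all 17 chemokine probe sets, limma called 6 higher in CP70 than in A2780, 7 higher with decitabine and 7 higher with both drugs. Of all 54613 probe sets, 11.5%, 2.91% and 3.95% were called higher in these comparisons. With PXD101, 1 chemokine probe set was called lower, against 2.92% of all: 206365_at of XCL1, at -0.97 ± 0.22 (adjusted p over all probe sets = 0.0302). That probe set lay at 9.36, 8.30 and 9.06 in untreated CP70 and at 7.88, 7.99 and 7.95 with PXD101, and the other XCL1 probe set missed the threshold (-0.42, 0.142).

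The 4 members that attract neutrophils lie in 1 stretch of chromosome 4. In the order of RefSeq's protein-coding genes it runs CXCL8, CXCL6, PF4V1, CXCL1, PF4, PPBP, CXCL5, CXCL3 and CXCL2, which is 9 genes. With decitabine the members changed by 2.03, 0.93, 0.71 and 0.78 for CXCL8, CXCL1, CXCL3 and CXCL2, whereas the 5 genes between them changed by -0.25 to 0.24 and none of those was called by limma. With both drugs CXCL5 rose by 0.34 ± 0.10 (limma adjusted p = 0.0491), and CXCL6, PF4V1, PF4 and PPBP changed by -0.18 to 0.01. CXCL6 fell between the lines by 0.74 ± 0.15. PF4V1, PPBP, CXCL5 and CXCL6 were under 4.34 in every group, so that changes in them could be understated. These 5 genes were chosen by their position after the members' values were known.

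**Figure D4:**
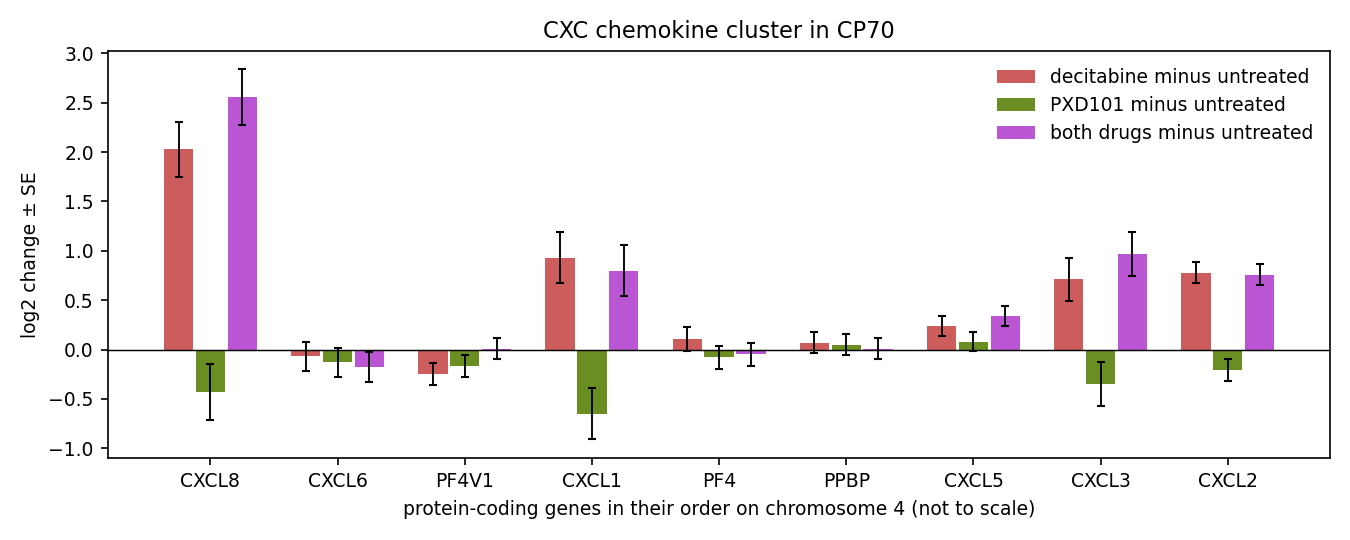
Log2 change from untreated CP70 (vertical axis, bars with SE) of the 9 protein-coding genes of the CXC stretch of chromosome 4, in their order (horizontal axis, not to scale), with decitabine, PXD101 and both drugs. CXCL8, CXCL1, CXCL3 and CXCL2 stand above 0.70 with decitabine, and CXCL6, PF4V1, PF4, PPBP and CXCL5 lie between -0.25 and 0.24.

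Of 34 other chemokine genes listed, 29 were measured, and 17 of these were under 4.34 in every group. Between the lines 3 rose and 1 fell by limma: CXCL11 by 0.47 ± 0.13, CXCL10 by 0.42 ± 0.15 and CXCL14 by 0.38 ± 0.11, with CXCL6 the one that fell. CXCL10 and CXCL11 are interferon-induced ligands of CXCR3. With decitabine 1 rose, CXCL11 (0.59 ± 0.13), and with both drugs 3 rose, CXCL11 (0.99 ± 0.13), CXCL10 (0.61 ± 0.15) and CXCL5; with PXD101 none was called. The median change of the 29 was 0.04, 0.04, -0.03 and -0.00 in the 4 comparisons, close to that of all genes (0.01, 0.02, 0.01 and -0.00). Of all genes, 16.1% rose and 15.2% fell between the lines, 4.87% rose with decitabine and 6.17% rose with both drugs. The counts among the 29 between the lines and with decitabine were near or under those shares.

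Of 21 chemokine receptors measured, 11 were under 4.34 in every group. These 11 included XCR1, CCR6, CCR2 and CX3CR1, the receptors of XCL1, CCL20, CCL2 and CX3CL1, and CXCR2, one of the receptors of the neutrophil attractants. The other, CXCR1, had group means of 6.12 to 6.28. CCR1, a receptor of CCL5, lay at 9.80 in A2780 and at 11.46 in untreated CP70 and rose by 1.66 ± 0.20 (limma adjusted p = 1.01e-05). CCRL2, an atypical receptor that binds chemerin, rose by 1.86 ± 0.20 between the lines, by 1.28 ± 0.20 with decitabine and by 1.42 ± 0.20 with both drugs (limma adjusted p = 3.02e-06, 0.000889 and 0.000303). In all, 4 receptors rose between the lines (also ACKR4 and CCR10), 1 rose with decitabine, 1 with both drugs, and CCR10 fell with PXD101 by 0.80 ± 0.22. These counts are near the shares of all genes, of which 16.1% rose between the lines, 4.87% with decitabine and 6.17% with both drugs, and 5.15% fell with PXD101.

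Of 22 measured genes of the NF-kB pathway, which acts on several of these promoters, 9 rose with decitabine and 9 with both drugs, and none fell. In these comparisons 4.87% and 6.17% of all genes rose. The median change of the 22 was 0.42 and 0.38, against 0.02 and -0.00 for all genes. With decitabine the inhibitors NFKBIE and NFKBIA rose by 0.71 ± 0.11 and 0.92 ± 0.17, the deubiquitinase CYLD by 0.78 ± 0.14 and the kinase of the non-canonical arm MAP3K14 by 0.91 ± 0.18. With both drugs CYLD rose by 0.97 ± 0.14, NFKBIE by 0.79 ± 0.11, MAP3K14 by 1.10 ± 0.18 and NFKBIA by 0.81 ± 0.17. Several genes that rose, among them NFKBIA, NFKBIE and CYLD, are known to restrain the pathway. Between the lines 6 rose and 1 fell, with NFKBIA (0.89), TAB2 (0.87) and RELB (0.85) among the rises and the kinase MAP3K7 as the fall (-0.45). With PXD101 1 rose, NFKBIE by 0.47 ± 0.11. Of all genes, 16.1% rose and 15.2% fell between the lines and 5.57% rose with PXD101, so that the PXD101 count was near that share.

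AP-1 and CEBP factors, which also act on chemokine promoters, moved in the comparison of the lines. Of 16, 10 rose in CP70 and none fell, where 16.1% of all genes rose and 15.2% fell, and the median was 0.91 against 0.01 for all genes; JUN rose by 3.92 ± 0.34, CEBPG by 2.01 ± 0.30, JUNB by 1.54 ± 0.24 and JUND by 0.69 ± 0.11. With decitabine 2 rose, CEBPD by 0.31 ± 0.08 and FOSL1 by 0.84 ± 0.23, and with both drugs FOSL1 rose by 1.29 ± 0.23 while CEBPA fell by 0.66 ± 0.17. With PXD101 3 fell: ATF3 by 3.53 ± 1.00, JUN by 1.19 ± 0.34 and JUND by 0.40 ± 0.11. The shares of all genes were 4.87% higher with decitabine, 6.17% higher and 4.22% lower with both drugs, and 5.15% lower with PXD101.

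Of 12 interferon regulatory factors and STATs, none rose and 2 fell between the lines, STAT5B by 0.35 ± 0.09 and IRF3 by 0.44 ± 0.11. With decitabine 3 rose: IRF7, the factor that amplifies interferon, by 1.30 ± 0.16, IRF9 by 1.18 ± 0.25 and IRF3 by 0.70 ± 0.11. With both drugs 4 rose and 1 fell, with IRF7 at 1.28 ± 0.16, IRF9 at 1.19 ± 0.25, IRF3 at 0.58 ± 0.11 and STAT5B at -0.40 ± 0.09. With PXD101 IRF3 rose by 0.37 ± 0.11. Of all genes, 16.1% rose and 15.2% fell between the lines, and 5.57% rose with PXD101. The counts of this list in those 2 comparisons were near or under these shares. The shares of all genes were 4.87% higher with decitabine, and 6.17% higher and 4.22% lower with both drugs. As for every call with PXD101, those on these lists were absent when CP70 replicate 1 or 3 or a PXD101 array was left out. Some were also lost without arrays outside the comparison: IRF3, JUN and ATF3 were called in 2, 4 and 5 of 15 fits with 1 array left out.

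**Figure D5:**
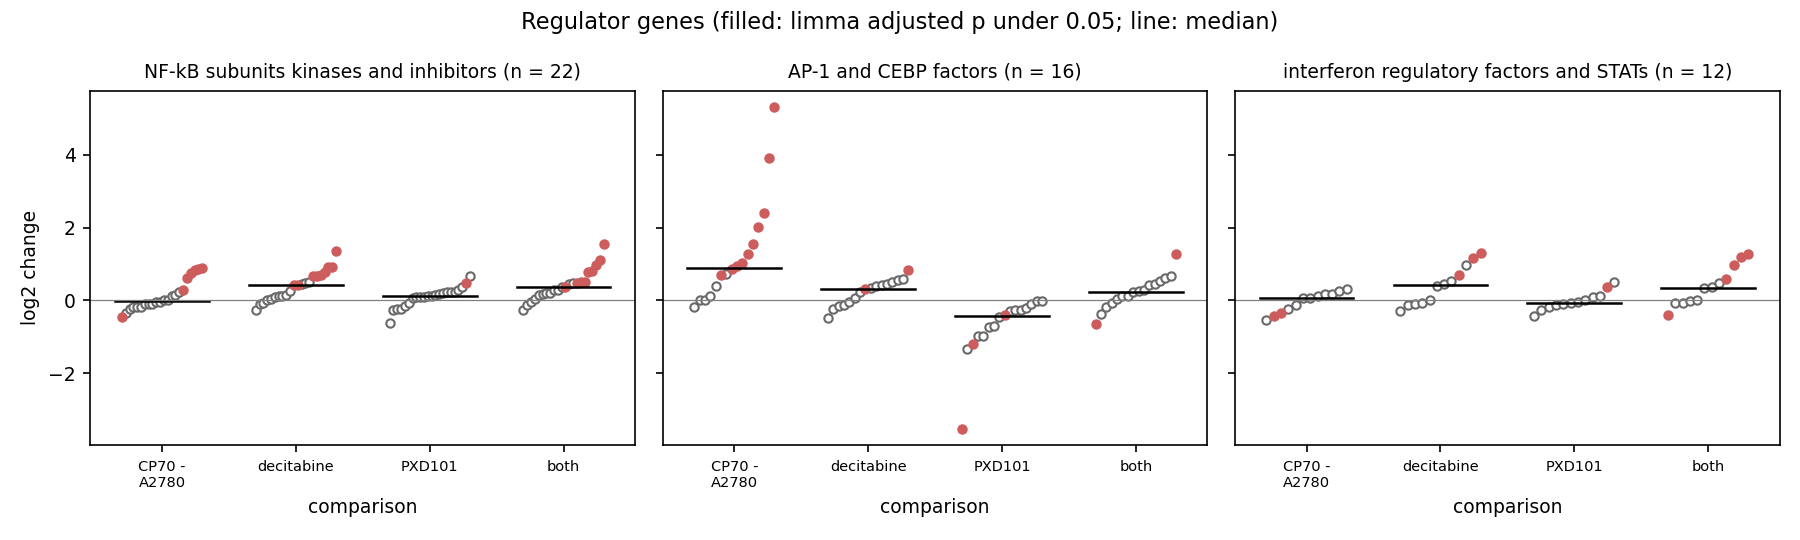
Log2 change (vertical axis) of each measured gene of the NF-kB list (22 genes), the AP-1 and CEBP list (16) and the interferon regulatory factor and STAT list (12) in the 4 comparisons (horizontal axis); filled points have a limma adjusted p under 0.05 and the line is the list's median. The AP-1 and CEBP median is 0.91 between the lines and -0.43 with PXD101, and the NF-kB median is 0.42 with decitabine.

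Among 26 measured cytokines and receptors known to induce chemokines, 5 rose and 2 fell between the lines, 5 rose and none fell with decitabine and with both drugs, and 2 rose and 2 fell with PXD101. Of all genes, 16.1% rose and 15.2% fell between the lines, 4.87% rose with decitabine, 6.17% rose with both drugs, and 5.57% rose and 5.15% fell with PXD101, so that the counts between the lines and with PXD101 were near or under those of all genes. The IL-1 receptor IL1R1 rose between the lines by 2.45 ± 0.23, with decitabine by 1.05 ± 0.23 and with both drugs by 1.04 ± 0.23 (2.07, 1.43 and 1.42 without CP70 replicate 2). The lymphotoxin receptor LTBR rose by 1.40 ± 0.19 with decitabine and by 1.23 ± 0.19 with both drugs, and the cytokine IL6 by 0.96 ± 0.21 and 1.37 ± 0.21. Of the interferon gamma receptor chains, IFNGR1 rose by 2.01 ± 0.13 between the lines, where IFNGR2 fell by 0.35 ± 0.10; with decitabine IFNGR2 rose by 0.72 ± 0.10. With PXD101 the cytokine LIF fell by 1.28 ± 0.35.

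The 12 measured genes of AU-rich mRNA decay, a route that shortens the life of many chemokine transcripts, had 3 rises and 3 falls between the lines and no call with decitabine or both drugs. Among the rises were ZFP36L1 (1.03 ± 0.18) and ZFP36 (0.77 ± 0.22), whose products destabilise such transcripts. With PXD101 ZFP36L1 fell by 0.67 ± 0.18 and HNRNPD rose by 0.56 ± 0.15. Of 15 proteases and inhibitors that cut or shed chemokines, 3 rose and 3 fell between the lines, with MMP1 at 2.69 ± 0.33, TIMP1 at 1.31 ± 0.12, MMP8 at -2.59 ± 0.15 and MMP12 at -3.41 ± 0.29. MMP12 rose by 1.39 ± 0.29 with decitabine and by 1.53 ± 0.29 with both drugs, and CTSB by 0.47 ± 0.11 and 0.37 ± 0.11. The shares of all genes were 16.1% higher and 15.2% lower between the lines. They were 4.87% higher with decitabine, 6.17% higher with both drugs, and 5.57% higher and 5.15% lower with PXD101. Some calls on these lists rested on single arrays. With 1 array left out in turn, of 15 fits, CXCL10, ACKR4 and CCR10 were called between the lines in 6, 5 and 5, FOSL1 with decitabine in 6, and CXCL5 and CTSB with both drugs in 4 each.

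Markers were examined because chemokines are also made by leukocytes and stroma. Of 14 leukocyte markers, 6 were under 4.34 in every group: PTPRC, CD2, MS4A1, LYZ, NKG7 and KLRD1. The mean over the list ran from 4.34 to 4.39 in A2780, from 4.38 to 4.41 in untreated CP70, from 4.51 to 4.56 with decitabine, from 4.33 to 4.38 with PXD101 and from 4.43 to 4.52 with both drugs. TYROBP, an adaptor of myeloid and natural killer receptors, rose by 1.30 ± 0.24 with decitabine and by 1.17 ± 0.24 with both drugs, and FCER1G by 0.63 ± 0.17 with both. Of 9 fibroblast and endothelial markers, CDH5, KDR and FAP were under 4.34 throughout. Between the lines 1 rose, LUM by 2.89 ± 0.16, and 3 fell, where 16.1% of all genes rose and 15.2% fell. The falls were in COL1A2 (mean 11.10 in A2780, 8.62 in untreated CP70), PDGFRA (6.74, 5.17) and PDGFRB (6.84, 6.45). With decitabine COL1A2 fell by 0.72 ± 0.20, a call kept in 6 of 15 fits with 1 array left out. Of 9 ovarian epithelial markers, WT1, MUC16 and CDH1 were under 4.34 throughout. KRT18 and EPCAM rose between the lines (1.84 ± 0.19 and 0.88 ± 0.18). KRT8, KRT18 and EPCAM rose with decitabine (1.37 ± 0.16, 0.96 ± 0.19 and 0.71 ± 0.18), and the mean over that list was 5.43 to 5.65 in A2780, 5.84 to 5.99 in untreated CP70, 6.23 to 6.30 after decitabine, 5.69 to 5.78 after PXD101 and 6.26 to 6.29 in the combined group. The part of these markers in the chemokine values was not tested, and in such bulk RNA a change in the number of cells that make a transcript and a change in RNA per cell cannot be told apart.

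By the root mean square difference of centred log2 values over the 15 arrays, among 2861 genes whose group means span at least 1 log2, the genes with patterns most like that of XCL1 were ADAMTS5 (0.24), ZPLD1 (0.43), RND3 (0.51), MECOM (0.51) and PTPRK (0.60). For CCL20 they were JUN (0.29), PMAIP1 (0.46), ERRFI1 (0.48), SHTN1 (0.48) and ASB5 (0.49). JUN, the closest to CCL20, had means of 5.61 in A2780, 9.53 in untreated CP70, 10.02 with decitabine, 8.33 with PXD101 and 10.20 with both drugs. For CCL5 they were ASB2 (0.20), PLAT (0.23), ASMTL (0.24), ISG15 (0.24) and IFI6 (0.26). For CXCL8 they were CH25H (0.30), OAS1 (0.37), ZNF165 (0.37), COXFA4L3 (0.38) and FAM9C (0.42). The likeness is a description over shared arrays and carries no test.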

How the data were processed

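RNA was amplified (NuGEN WT-Ovation Pico), biotin-labelled and measured on 15 Affymetrix arrays, per the labels' protocols. The authors deposited 1 table of log2 values for 54675 probe sets; R 2.10.1 and affy are named in the submitters' processing notes, and the steps of background correction, normalization and summarization are not stated there. Values from 2.39 to 14.52 show the log2 scale. Arrays give no depth, and their number limits the precision.

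Symbols came from the platform annotation updated through RefSeq (41097 probe sets with 1 symbol, 1801 with several, 11777 with none). The 62 controls were left out, and of several probe sets for a gene the one with the highest mean level was taken. limma 3.58.1 (R 4.3.3; lmFit, eBayes) was fitted on all 15 arrays with group means, with Benjamini-Hochberg adjustment over 19775 genes, and separately over 54613 probe sets; a call is an adjusted p under 0.05. Rank product used 9 pairwise differences and 100 permutations (R 4.3.3). Summaries and figures were made with Python 3.11.15. Scripts were tested on simulated data.

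All 10 members were named, with up to 4 called genes per list and comparison by smallest p and the 5 most alike genes of 4 members. Members and lists were chosen with earlier results of these data known. Same-numbered arrays did not deviate together (30 pairs, correlation -0.380 to 0.490, median 0.022), so the numbers were not taken to pair samples. Alternatives used only the arrays compared, a replicate block, the more highly expressed genes alone, averaged probe sets, each probe set by itself, weighted arrays, a minimum change, a repeat of quantile normalization, median centring, CP70 replicate 2 as the only untreated array, each array left out, and rank product.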

Additional observations from a re-analysis of the deposited data

How the results depend on the processing

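Numbers of chemokines called (5 between the lines, 4 with decitabine, none with PXD101, 4 with both drugs, 0 between both drugs and decitabine, 7 for each of both drugs and decitabine against PXD101, and 0 non-additive) moved by over 1.5 times under these settings. Between the lines they were 2 among genes above the median level, 3 with a change of at least 1 log2, 3 with CP70 replicate 2 as the only untreated array and 3 by rank product. With decitabine they were 1, 2 and 2 (above the median level, at least 1 log2, rank product). With PXD101 they were 1 with the mean of all probe sets, 5 with array weights and 1 by rank product. With both drugs they were 1 above the median level, 7 with array weights, 2 at 1 log2 and 2 by rank product. Against PXD101 they were 2 and 2 above the median level, a setting in which 4 of the 10 genes (XCL1, CCL5, CCL20 and CXCL16) were tested. The non-additive count was 4 with array weights. With each array left out in turn, counts ran from 3 to 6 between the lines, 3 to 5 with decitabine, 0 to 3 with PXD101, 3 to 5 with both drugs, 6 to 8 for both drugs against PXD101, 5 to 8 for decitabine against PXD101 and 0 to 2 for the non-additive response. CX3CL1 with decitabine reversed to 0.26 (adjusted p = 0.0481) with the mean of both probe sets. Causes were not tested.

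With a replicate block, which the numbers do not warrant as a pairing, 5, 3, 0, 4, 0, 7, 5 and 0 chemokines were called in the same order; the calls lost were CXCL1 with decitabine (adjusted p = 0.0660) and CCL20 and CCL2 for decitabine against PXD101 (0.0744 and 0.0585). All-gene counts also moved, upward with array weights (6668 for 1583 with decitabine, 8634 for 2119 with PXD101, 8125 for 2055 with both drugs, 5329 for 3 non-additive) and without CP70 replicate 2 (4673, 5736, 4917 and 4059), and downward with only the arrays compared (507, 0, 834 and 2) and with a change of at least 1 log2 (344, 378, 418 and 2). Between the lines 6174 became 10162 with array weights and 1929 at 1 log2. The replicate block gave 1198 of all genes with PXD101, rank product 1042 between the lines and 379, 363 and 446 with the drugs. Single chemokine changes kept their status, called or not called, in 737 of 792 alternative fits and 1140 of 1200 fits with 1 array left out. Called changes lost their call in 28 and 42 of these fits. Changes that were not called gained a call with the same sign in 26 and 18. Within the counts of kept status a change that was not called could switch sign. CCL20 with decitabine, for instance, went from 0.27 to -0.22 without CP70 replicate 2.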

Other observations

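Genes of the heparan sulfate chains and core proteins that hold chemokines at the cell surface differed between the lines: of 18 measured, 9 fell and 2 rose by limma, where 15.2% of all genes fell and 16.1% rose, and the median change was -0.46 against 0.01 for all genes. GPC4 and GPC3, glypicans anchored to the membrane, fell by 4.99 ± 0.11 and 4.93 ± 0.18 (limma adjusted p = 2.52e-14 and 1.72e-11), and the syndecan SDC2 by 2.74 ± 0.14. The glypican GPC6 changed by -2.67 ± 0.14. The mean over the list was 8.05 to 8.16 in A2780 and 6.89 to 7.15 over all CP70 arrays, with or without drug. With decitabine none was called, with PXD101 2 fell (HS6ST2 and GPC4), and with both drugs SDC4 rose by 0.91 ± 0.24 and HS6ST2 fell by 0.43 ± 0.12. The shares of all genes were 5.15% lower with PXD101, and 6.17% higher and 4.22% lower with both drugs.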
